A study of Mus musculus with 9 samples.

Results

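Reelin signalling was followed through 4 genes, which encode the secreted ligand (Reln), its 2 receptors (Vldlr and Lrp8) and the adaptor protein inside the cell that carries the signal on (Dab1). The genes were chosen by name, with earlier results of these data known. Each had 1 probe set annotated to that gene alone, and they are 4 of the 19938 genes with such a probe set. RNA came from mice at postnatal day 13, and each of the 3 groups held 3 samples, with 1 Affymetrix Mouse Gene 1.0 ST array per sample. The groups were wildtype cerebellum, SufuKO cerebellum and Ptch1KO medulloblastoma, a tumour of the cerebellum. Sufu and Ptch1 are both brakes on Hedgehog signalling, the pathway that keeps granule neuron progenitors dividing. The labels name no strain, Cre line or deleted exon. They leave unsaid whether each sample is its own animal, so the p-values reflect only how far these samples scatter, and part of that scatter may be technical.

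Reelin is a large glycoprotein of the extracellular space that guides neurons to their layers. In the developing cerebellum it is made by granule neurons and their precursors in the outer layer, and it acts on Purkinje cells beneath them. Reelin binds Vldlr and Lrp8 (also called ApoER2), 2 members of the LDL receptor family. The clustered receptors bring about phosphorylation of Dab1 by the Src family kinases Fyn and Src. Mice without Reln, without Dab1 or without both receptors have Purkinje cells that fail to spread into a plate and a small cerebellum with few folds.

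On the receiving side of the signal, Dab1 and Vldlr were lower in both mutants and Lrp8 was lower in the tumours, while Reln, the ligand, was higher in both. Dab1 was 1.59-fold lower in SufuKO and 2.80-fold lower in Ptch1KO tumours than in wildtype. Vldlr was 1.36-fold lower in SufuKO and 1.70-fold lower in the tumours. Lrp8 was 1.78-fold lower in the tumours, while in SufuKO its groups overlapped. Reln was 1.31-fold higher in SufuKO and 1.14-fold higher in the tumours, the latter a call that several alternatives ended.

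The values used were the deposited log2 values, in which 1 unit is a doubling. Array medians lay between 6.72 and 6.79. Sufu was 0.89 ± 0.08 (SE) log2 units lower in SufuKO than in wildtype, and Ptch1, read by a probe set that need not lie in the deleted part, was 1.02 ± 0.08 higher in the tumours. Ptch1KO replicate 3 lay nearest to wildtype on the first principal component, at 26.1 against 41.3 and 39.9, and results that rest on the tumours are therefore given with and without it where it matters. Xist, the RNA of the inactive X chromosome, was high on 3 wildtype arrays, 1 SufuKO array and 1 Ptch1KO array. Y-linked genes were high on the other 2 of each mutant group, so sex differs between wildtype and the mutants.

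The 4 genes have 8 RefSeq promoter windows (GRCm38.p6) among 32851, and the 250 bases before the start were read in each. One window per gene is shown, the one with the highest ratio of observed to expected CG dinucleotides, so that the letters searched can be seen. The array does not show which start was used. Each is written 5′ to 3′ on the gene's strand, and capitals mark E-boxes (CANNTG, the core that bHLH factors such as Atoh1 bind) and GC boxes (GGGCGG, the core that Sp1 binds), each searched on both strands; no marked E-box overlaps a GC box.
Reln, chr5:22344706-22344955, minus strand: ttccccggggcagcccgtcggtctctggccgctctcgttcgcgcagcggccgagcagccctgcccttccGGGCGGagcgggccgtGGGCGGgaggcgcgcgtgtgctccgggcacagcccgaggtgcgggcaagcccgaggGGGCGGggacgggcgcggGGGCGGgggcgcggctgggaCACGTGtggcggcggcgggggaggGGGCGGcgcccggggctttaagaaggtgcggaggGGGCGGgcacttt
Vldlr, chr19:27216770-27217019, plus strand: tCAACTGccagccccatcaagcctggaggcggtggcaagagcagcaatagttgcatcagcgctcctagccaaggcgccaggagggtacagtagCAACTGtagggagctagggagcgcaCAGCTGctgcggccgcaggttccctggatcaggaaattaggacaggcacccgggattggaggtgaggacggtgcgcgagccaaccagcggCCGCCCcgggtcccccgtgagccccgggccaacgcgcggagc
Lrp8, chr4:107802635-107802884, plus strand: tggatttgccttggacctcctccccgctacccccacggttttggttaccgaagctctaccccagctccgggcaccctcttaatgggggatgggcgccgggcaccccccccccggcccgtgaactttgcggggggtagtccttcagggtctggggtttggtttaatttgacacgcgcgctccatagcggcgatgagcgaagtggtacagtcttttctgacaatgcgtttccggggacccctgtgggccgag
Dab1, chr4:104367288-104367537, plus strand: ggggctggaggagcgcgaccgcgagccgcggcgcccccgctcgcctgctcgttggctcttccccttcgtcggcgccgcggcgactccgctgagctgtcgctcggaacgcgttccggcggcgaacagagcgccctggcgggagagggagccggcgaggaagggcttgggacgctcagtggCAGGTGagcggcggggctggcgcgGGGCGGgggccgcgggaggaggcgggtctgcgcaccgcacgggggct
The Reln window was 80.0% G and C with 6 GC boxes and the Dab1 window 78.0% with 1, against a median of 52.4% over all windows. The Vldlr window held 3 E-boxes and 1 GC box at 66.4% G and C, and the Lrp8 window neither motif at 62.4%. The shown windows were picked by their CG ratio, so they are not a neutral sample to set against that median. The windows not shown had 56.4% G and C for Dab1, 41.6% for Vldlr, and 52.8% and 53.6% for Lrp8. Reln had no other window. Over all 8 windows, 6 held an E-box and 3 a GC box, against 66.2% and 32.7% of all windows. The Gli binding site GACCACCCA, searched on both strands, was in 0 of the 8 and in 0.225% of all windows.

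Reln, the ligand, read 11.39, 11.35 and 11.39 in wildtype, 11.74, 11.72 and 11.86 in SufuKO and 11.60, 11.46 and 11.62 in the tumours (log2 values, replicates 1 to 3). All 3 SufuKO arrays lay above all tumour arrays, and all tumour arrays lay above wildtype. The mean levels were 11.38 ± 0.02 (SD, n = 3), 11.77 ± 0.07 and 11.56 ± 0.09. The rise in SufuKO was 0.39 log2 units (SE 0.07, 95% confidence interval 0.24 to 0.54, limma adjusted p = 0.00141). In that comparison 25.4% of the 16323 tested genes were called, at an adjusted p under 0.05, 13% as higher, and 21.3% were higher without overlap. The rise in the tumours was 0.18 (interval 0.03 to 0.33, adjusted p = 0.0461), in a comparison where 46.8% of genes were called, 22.1% were higher and 26.4% were higher without overlap. Reln was 0.21 lower in the tumours than in SufuKO (log2 difference -0.21, interval -0.36 to -0.06, adjusted p = 0.0377), where 29.7% of genes were called.

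The rise of Reln in SufuKO kept its call under each of 18 alternatives tried, at adjusted p from 5.86e-05 to 0.00828. The other 2 calls did not. Against wildtype, the tumour call ended with quantile normalization (adjusted p = 0.0783), with arrays centred on their median (0.0614) and with sex as a covariate (0.121). It also ended without wildtype replicate 1 (0.0886), 2 (0.125) or 3 (0.0820), without SufuKO replicate 2 (0.0625), and without Ptch1KO replicate 1 (0.134) or 3 (0.122). Between the mutants the call ended in a fit of those 2 groups alone (0.0759). It was also lost without wildtype replicate 1 (0.0547), 2 (0.0526) or 3 (0.0508), SufuKO replicate 1 (0.0530), 2 (0.0607) or 3 (0.114), and Ptch1KO replicate 1 (0.0632) or 2 (0.163).

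**Figure D1:**
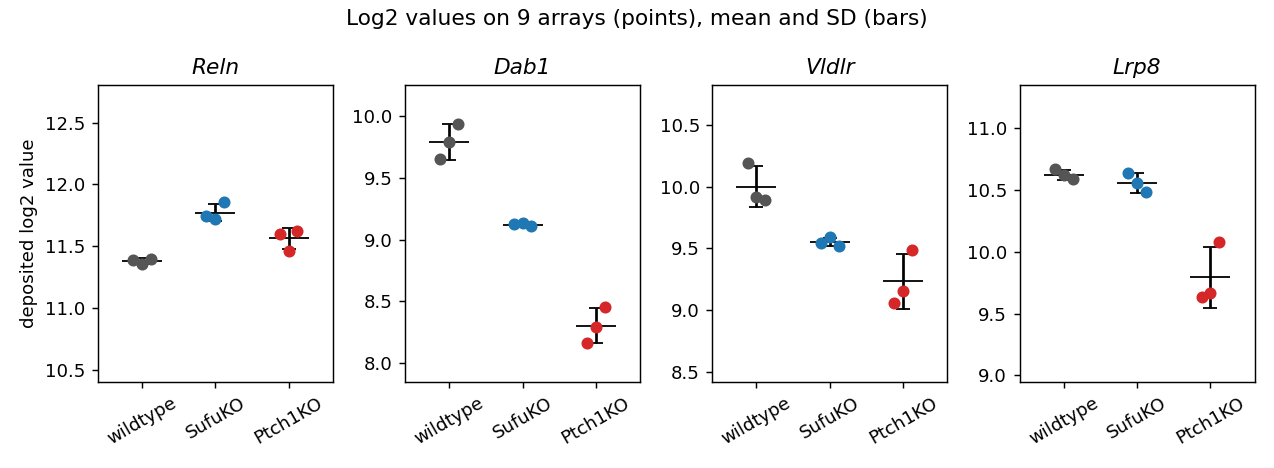
Deposited log2 values of the 4 genes on each of the 9 arrays, by group, with the mean and SD of 3 arrays; the panels share 1 height of scale, but a gene's level is not comparable with another's. Dab1 and Vldlr step down from wildtype (means 9.79 and 10.00) through SufuKO (9.12 and 9.55) to Ptch1KO (8.30 and 9.23), Lrp8 steps down in Ptch1KO from 10.62 to 9.79, and Reln is highest in SufuKO at 11.77.

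Vldlr, the very low density lipoprotein receptor, read 10.19, 9.92 and 9.90 in wildtype, 9.54, 9.59 and 9.52 in SufuKO and 9.06, 9.16 and 9.49 in the tumours (log2 values). The 3 groups did not overlap, although tumour replicate 3 lay within 0.04 of the lowest SufuKO array. Vldlr was lower by 0.45 log2 units in SufuKO (difference -0.45, SE 0.11, interval -0.69 to -0.21, limma adjusted p = 0.0100). In the tumours the difference was -0.77 (interval -1.01 to -0.53, adjusted p = 8.53e-05). A cell type that is scarcer in the tissue and a cell type that holds less of the RNA cannot be told apart in total RNA, here or for any gene below.

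Between the mutants Vldlr differed by -0.32 (interval -0.56 to -0.08, adjusted p = 0.0458). That call ended with no filter on low values (adjusted p = 0.0531), quantile normalization (0.0765) and a fit of the 2 groups alone (0.0520). It was also lost without wildtype replicate 2 (0.0564) or 3 (0.0529), SufuKO replicate 1 (0.0849), 2 (0.130) or 3 (0.0671), and Ptch1KO replicate 1 (0.192) or 2 (0.149). Without Ptch1KO replicate 3 the difference was -0.44 (adjusted p = 0.00360). Over the alternatives the value stayed between -0.44 and -0.23, so the direction was kept.

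Lrp8, the other reelin receptor, was lower in the tumours and not called in SufuKO. Its log2 values were 10.67, 10.62 and 10.59 in wildtype and 10.64, 10.56 and 10.48 in SufuKO, and these groups overlapped. In the tumours they were 9.63, 9.67 and 10.08, all below the other 6 arrays. The difference between SufuKO and wildtype was -0.07 (interval -0.29 to 0.16, adjusted p = 0.726), which leaves room for a fall of up to 0.29 or a rise of up to 0.16. With sex as a covariate it was -0.17 (adjusted p = 0.330), and with 1 array left out it lay between -0.11 (without SufuKO replicate 1) and -0.03 (without SufuKO replicate 3), not called in any of these. The fall in the tumours was 0.83 log2 units against wildtype (difference -0.83, SE 0.11, adjusted p = 3.04e-05) and 0.77 against SufuKO (difference -0.77, adjusted p = 0.000191). Tumour replicate 3 stood 0.41 above the next tumour array, and without it the falls were larger, at -0.97 and -0.91. The probe set of Lrp8os2, an RNA named as an opposite strand transcript of Lrp8 and looked up after these values were seen, read 7.00 ± 0.06, 6.86 ± 0.15 and 6.97 ± 0.06 in the 3 groups (SD, n = 3) and was not called in any comparison.

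**Figure D2:**
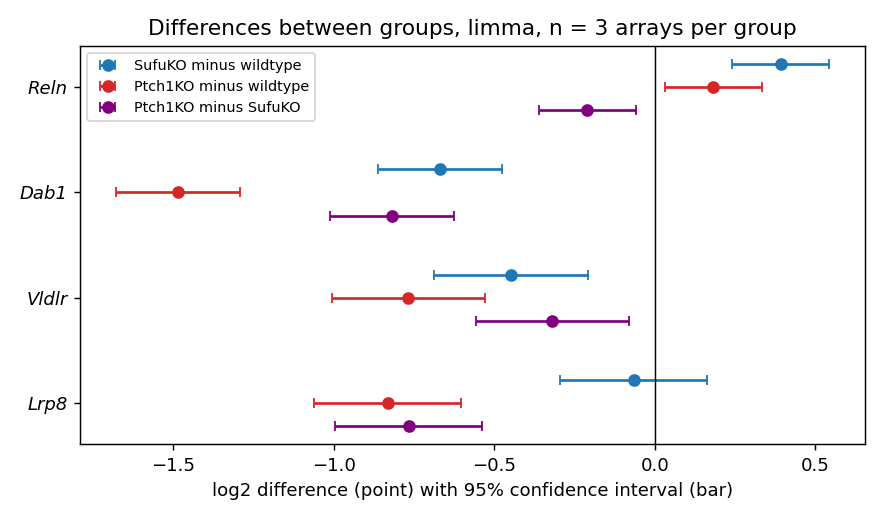
Log2 differences of the 4 genes in the 3 comparisons, with 95% confidence intervals from limma (n = 3 arrays per group). The SufuKO interval of Lrp8 spans 0 (-0.29 to 0.16), and the Dab1 interval in Ptch1KO, -1.68 to -1.29, lies farthest from 0.

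The 2 receptors were set against each other on each array, to ask whether their change was unequal. Lrp8 minus Vldlr was 0.48, 0.71 and 0.69 in wildtype, 1.10, 0.97 and 0.96 in SufuKO and 0.58, 0.51 and 0.59 in the tumours (log2 units; its size at rest depends on the probes and has no meaning of its own). Every SufuKO array lay above every other array. From wildtype to SufuKO the value rose by 0.38 (exact permutation test, 2-sided, p = 0.10, the smallest that 3 against 3 can give), which is the amount by which Vldlr fell more than Lrp8. From SufuKO to the tumours it fell by 0.45 (exact permutation p = 0.10), since there Lrp8 fell more. Tumours and wildtype differed by -0.06, with overlapping arrays (exact permutation p = 0.50).

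**Figure D3:**
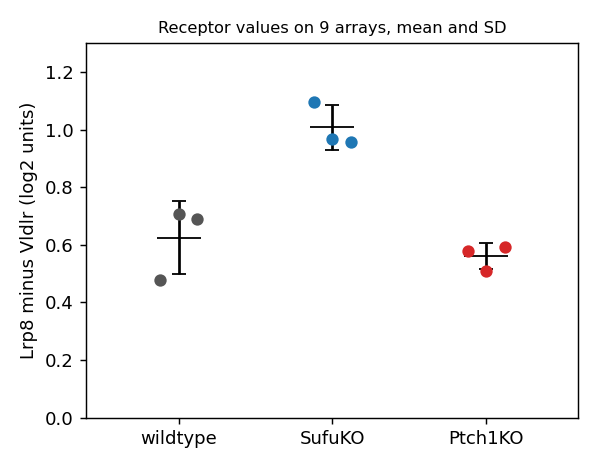
Lrp8 minus Vldlr on each of the 9 arrays (log2 units), with the mean and SD of 3 arrays per group. SufuKO lies between 0.96 and 1.10, above wildtype (0.48 to 0.71) and Ptch1KO (0.51 to 0.59), which overlap.

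Dab1, the adaptor that docks on the tails of both receptors, showed the largest differences of the 4 genes. Its log2 values were 9.65, 9.79 and 9.94 in wildtype, 9.13, 9.13 and 9.11 in SufuKO and 8.17, 8.29 and 8.45 in the tumours. The groups lay in steps with no overlap. The differences were -0.67 in SufuKO (SE 0.09, interval -0.86 to -0.47, limma adjusted p = 0.000208), -1.49 in the tumours (interval -1.68 to -1.29, adjusted p = 7.53e-08) and -0.82 between the mutants (interval -1.01 to -0.62, adjusted p = 4.26e-05). By size of fall it ranked 269 in SufuKO and 226 in the tumours among the 16323 tested genes. Each call held under all 18 alternatives, with the tumour difference between -1.56 and -1.41.

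In count, 3 of the 4 genes were called in SufuKO (1 higher, 2 lower), 4 in the tumours (1 higher, 3 lower) and 4 between the mutants (all lower in the tumours). Among all tested genes the shares called in either direction were 25.4%, 46.8% and 29.7%, and the shares called lower 12.4%, 24.7% and 17.5%. The groups did not overlap for 3 of the 4 genes in SufuKO against wildtype and for all 4 in the other comparisons. Without overlap, 21.3%, 26.4% and 16.1% of tested genes were higher in the 3 comparisons, and 19.6%, 30.2% and 23.6% were lower. Dab1 and Vldlr shared the stepped order of wildtype above SufuKO above tumour without overlap, which 11.1% of tested genes had, and both were called lower in all 3 comparisons, as 7.05% of tested genes were. Reln, higher in SufuKO and lower in the tumours than in SufuKO, fell in a class of 1.23% of tested genes, although the second of those calls is the one that alternatives ended. The first 2 comparisons share their wildtype arrays.

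The genes most like each member were found from the 9 log2 values, each gene centred on its own mean, by the root mean square difference. For Dab1 these were Tmem266 (0.049 log2 units), Usp2 and Baalc (0.052 each). For Lrp8 they were Adamts18 (0.050), Porcn (0.063) and Madd (0.067). For Vldlr they were Slc4a4 (0.076), Epha8 (0.077) and Cnksr2 (0.078), and for Reln they were Fam171a2 (0.039), Hs6st3 (0.044) and Eif4e3 (0.045). By the same measure, among the 16323 tested genes, Lrp8 came 978th in likeness to Dab1 (0.32) and Vldlr came 1096th (0.33). Lrp8 came 1463rd in likeness to Vldlr (0.21). To Reln, Lrp8 came 14706th (0.43), Vldlr 14804th (0.44) and Dab1 15896th (0.70). The nearest genes were picked for their likeness, so they are no yardstick for that of the members.

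Genes that act with the 4 were read from 7 lists, 61 tested of 66. In SufuKO 11 were higher and 12 lower (18.0% and 19.7%), in the tumours 14 higher and 23 lower (23.0% and 37.7%), and between the mutants 5 higher and 15 lower in the tumours (8.20% and 24.6%). Of all tested genes 13% were higher and 12.4% lower in SufuKO, 22.1% and 24.7% in the tumours, and 12.2% and 17.5% between the mutants, so the share higher in the tumours was near that of all genes. The median log2 difference of the 61 was 0.02, -0.12 and -0.08, against -0.01 for all tested genes in each comparison. Without Ptch1KO replicate 3 the counts were 14 higher and 22 lower in the tumours, and 6 and 16 between the mutants. The shares of all tested genes given here also stand beside the counts of each list below.

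The 19 genes of Dab1 signalling, some of which act on Dab1 rather than after it, went both ways. In SufuKO 4 rose, 3 fell and 12 were not called (median 0.09), and in the tumours 7 rose, 3 fell and 9 were not called (median 0.03). Without Ptch1KO replicate 3 the tumour counts were 7 and 2, since Rap1a then read -0.27 (limma adjusted p = 0.0591, against 0.0345 with all arrays). Fyn and Src, the kinases that phosphorylate Dab1, were not called in any comparison, and in the tumours they read -0.05 and 0.03 (adjusted p = 0.636 and 0.803). Akt1, a survival kinase, rose by 0.34 in SufuKO and 0.70 in the tumours (log2 difference, adjusted p = 0.00250 and 2.63e-06). Limk1, the kinase that inactivates cofilin, rose by 0.70 in SufuKO (adjusted p = 4.15e-05) and 0.36 in the tumours. Itga3, an integrin subunit reported to bind reelin, fell by 0.49 in SufuKO and 1.09 in the tumours (adjusted p = 0.00190 and 9.66e-07). Pik3r1, a regulatory subunit of PI3 kinase, fell by 0.50 and 0.42. Cdh2, the adhesion molecule N-cadherin, and Itgb1, the partner of Itga3, rose by 0.45 and 0.50 in the tumours.

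Of 5 genes of the ubiquitin ligase that removes active Dab1, 0 were called in SufuKO by limma at adjusted p under 0.05 (1, the elongin gene Eloc, had an unadjusted p under 0.05, at 0.0141), and 2 fell in the tumours. These were Socs7, the subunit that recognises Dab1 (-0.34, adjusted p = 0.00134), and Elob, an elongin (-0.26, adjusted p = 0.0473). Without Ptch1KO replicate 3 only Socs7 was called (-0.39, adjusted p = 0.000540), and Elob was not (-0.26, adjusted p = 0.0860). Of 9 genes of Lis1, dynein and doublecortin, 3 rose in SufuKO, while 3 rose and 3 fell in the tumours. Dcx, a microtubule protein of migrating neurons, rose by 0.93 and 0.94. Nde1 rose by 0.52 and 0.99 and Pafah1b3, a partner of Lis1, by 0.45 and 0.58. Dync1i1, a dynein intermediate chain of neurons, fell by 1.76 in the tumours (adjusted p = 7.42e-08), and in SufuKO it read -0.26 (adjusted p = 0.0913). Pafah1b1, which encodes Lis1 itself, read -0.08 and -0.21 and was not called (adjusted p = 0.598 and 0.0675). Without Ptch1KO replicate 3 it was called lower in the tumours (-0.26, adjusted p = 0.0463), where 4 of the 9 then fell.

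Of 5 tested proteases that cut reelin, 2 fell in SufuKO and 5 in the tumours, where 12.4% and 24.7% of all tested genes were called lower. The median log2 differences of the 5 were -0.18 and -0.38. Without Ptch1KO replicate 3, 4 fell in the tumours, since Plat, a plasminogen activator, then read -0.24 (limma adjusted p = 0.0676, against 0.0316 with all arrays). Adamts3, which cleaves the N-terminal part of reelin, read 8.83, 8.80 and 8.83 in wildtype, 8.38, 8.51 and 8.29 in SufuKO and 7.81, 7.73 and 7.76 in the tumours (log2 values), in 3 steps without overlap. Its differences were -0.43 and -1.06 (adjusted p = 0.000830 and 1.56e-07). Adamts4 differed by -0.47 and -1.34, and Adamts5 and Furin by -0.33 and -0.38 in the tumours. Adamts5 lay near the filter on low values, so its fall carries less. It read 5.37, 5.22 and 5.48 in the tumours, and the 25th percentiles of the arrays ran from 5.32 to 5.41.

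Other ligands of the receptors and genes of receptor traffic also fell more often than they rose. Of 7 tested, 5 were lower and 1 higher in SufuKO, and 4 were lower in the tumours. Among all tested genes 12.4% and 24.7% were called lower, and 13% and 22.1% higher. Apoe, at -0.24 in the tumours, was not called there (limma adjusted p = 0.0501). Without Ptch1KO replicate 3 Apoe was called (-0.33, adjusted p = 0.00657), and 5 of the 7 were then lower in the tumours. Clu, an apolipoprotein that binds both receptors, fell by 0.65 and 1.03 (log2 difference, adjusted p = 0.00561 and 6.95e-05). Mylip, the ubiquitin ligase that marks Vldlr and Lrp8 for breakdown, fell by 0.42 and 0.45. Thbs1, thrombospondin, fell by 0.32 and 0.44. Selenop, the selenium carrier that Lrp8 takes up, fell by 0.51 in SufuKO (adjusted p = 0.00811). Lrpap1, the chaperone of these receptors, was 0.25 higher in SufuKO (adjusted p = 0.0459) and 0.36 lower in the tumours.

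Among 10 other LDL receptor family genes 2 rose and 2 fell in SufuKO, and 3 rose and 4 fell in the tumours. The shares of all tested genes called higher and lower were 13% and 12.4% in SufuKO, and 22.1% and 24.7% in the tumours. Sorl1, a sorting receptor, read 11.04, 11.10 and 11.10 in wildtype, 10.34, 10.31 and 10.25 in SufuKO and 9.03, 9.33 and 9.53 in the tumours (log2 values), in steps without overlap. Its differences were -0.78 and -1.78, beside -0.45 and -0.77 for Vldlr. Lrp1, a clearance receptor, differed by -0.42 and -0.70. Lrp1b differed by -0.50 in the tumours and Lrp5, a Wnt coreceptor, by 0.59. Of 6 adaptors with the same kind of phosphotyrosine-binding domain as Dab1, 1 rose in SufuKO (Numbl, 0.27) and 1 rose and 2 fell in the tumours. Apba1 and Apbb1, adaptors of the amyloid precursor protein, were those that fell, by 0.85 and 0.47, and Apba2 rose by 0.38.

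**Figure D4:**
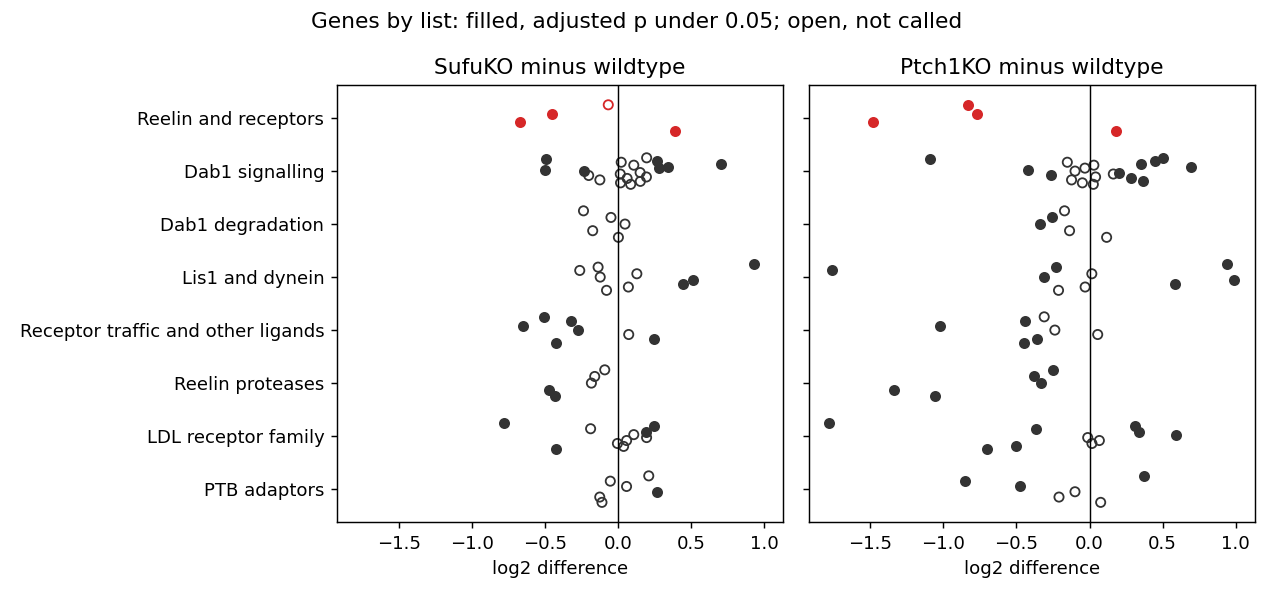
Log2 differences of the 4 genes (red) and of 61 genes in 7 lists around them (black), in SufuKO and in Ptch1KO against wildtype; filled points had an adjusted p under 0.05. All 5 tested reelin proteases lie below 0 in both panels, though Adamts5 read near the filter on low values. Sorl1, at -1.78, is the leftmost point of the LDL receptor family in Ptch1KO.

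Cell type markers moved with these results, and their part in them was not tested. Beside the counts below, 13% of all tested genes were called higher and 12.4% lower in SufuKO, and 22.1% and 24.7% in the tumours. For each list the summed level is the log2 of the sum of the markers' linear values on an array. Of 11 tested Purkinje cell markers, 9 fell in SufuKO, and 10 fell and 1 rose in the tumours, with medians of -0.52 and -1.59 beside -0.67 and -1.49 for Dab1. Their summed level ran from 14.29 to 14.36 in wildtype, 13.73 to 13.76 in SufuKO and 12.71 to 12.94 in the tumours. The marker that rose was Foxp2 (1.54), while Calb1 fell by 0.68 and 1.87 and Car8 by 0.70 and 2.03. This pattern was not particular to the Purkinje cell list. Median differences were -0.70 and -1.22 for interneuron, -0.77 and -1.96 for mature granule neuron and -0.76 and -2.30 for oligodendrocyte markers. Of 10 Bergmann glia and astrocyte markers 7 fell in SufuKO, and 7 fell and 1 rose in the tumours. Their summed level was 14.15 to 14.20, 13.80 to 13.85 and 13.59 to 13.83 in wildtype, SufuKO and tumours.

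Beside Reln stand the granule neuron lists, since these cells make reelin. Of 9 progenitor markers 7 rose in SufuKO and 8 in the tumours (medians 1.50 and 2.50), with summed levels of 12.51 to 12.70, 13.45 to 13.56 and 13.82 to 14.08. The marker that rose in the tumours only was Gli1, at -0.12 in SufuKO (limma adjusted p = 0.537) and 1.81 in the tumours (adjusted p = 1.76e-07). Of 10 mature granule neuron markers 9 fell in both, with medians of -0.77 and -1.96 and summed levels of 14.74 to 14.89, 14.11 to 14.24 and 13.11 to 13.59. Of 8 markers of Cajal-Retzius cells and cerebellar nuclei, other sources of reelin, 3 rose and 1 fell in each mutant. Slc17a6, the glutamate transporter of nuclear neurons and also of young granule neurons, rose by 1.04 and 1.15 and Lhx2 by 0.54 and 0.98, while Lhx5 fell by 0.44 and 0.88. The other that rose was Trp73 in SufuKO and Ebf2 in the tumours (0.88). Trp73 had mean levels of 7.05, 7.38 and 6.99 in wildtype, SufuKO and tumours. The median difference of the 8 was -0.01 in both mutants. Their summed level was 10.01 to 10.16 in wildtype, 10.60 to 10.76 in SufuKO and 10.74 to 10.89 in the tumours, a sum in which Slc17a6 weighs most, with mean levels of 8.94, 9.98 and 10.09.

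Lists of cells not central to reelin moved too. In SufuKO 6 of 8 interneuron, 9 of 9 oligodendrocyte, 5 of 9 endothelial and pericyte and 6 of 8 meningeal markers fell, and 1 of 7 microglial markers rose. In the tumours 8 of 8 interneuron, 9 of 9 oligodendrocyte and 9 of 9 vascular markers fell, 3 of 8 meningeal markers fell and 1 rose, and 3 of 7 microglial markers rose. In summed level, interneuron markers ran from 12.06 to 12.17 in wildtype, 11.26 to 11.46 in SufuKO and 10.52 to 10.56 in the tumours, oligodendrocyte markers from 13.65 to 13.91, 12.94 to 13.35 and 11.63 to 11.97. The vascular list ran from 11.47 to 11.58, 11.12 to 11.22 and 11.07 to 11.10, the meningeal list from 10.43 to 10.57, 10.09 to 10.24 and 10.25 to 10.41, and the microglial list from 9.85 to 9.87, 9.95 to 10.11 and 10.26 to 10.47. No tested marker of the 10 lists lay below its array's 25th percentile on all 3 arrays of a group, except 1 meningeal marker in each mutant group. Without Ptch1KO replicate 3 the 10 lists held 17 markers higher and 56 lower in the tumours, the same totals as with it, while the vascular count went from 9 to 7 lower and the Bergmann glia and astrocyte count from 7 to 9.

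**Figure D5:**
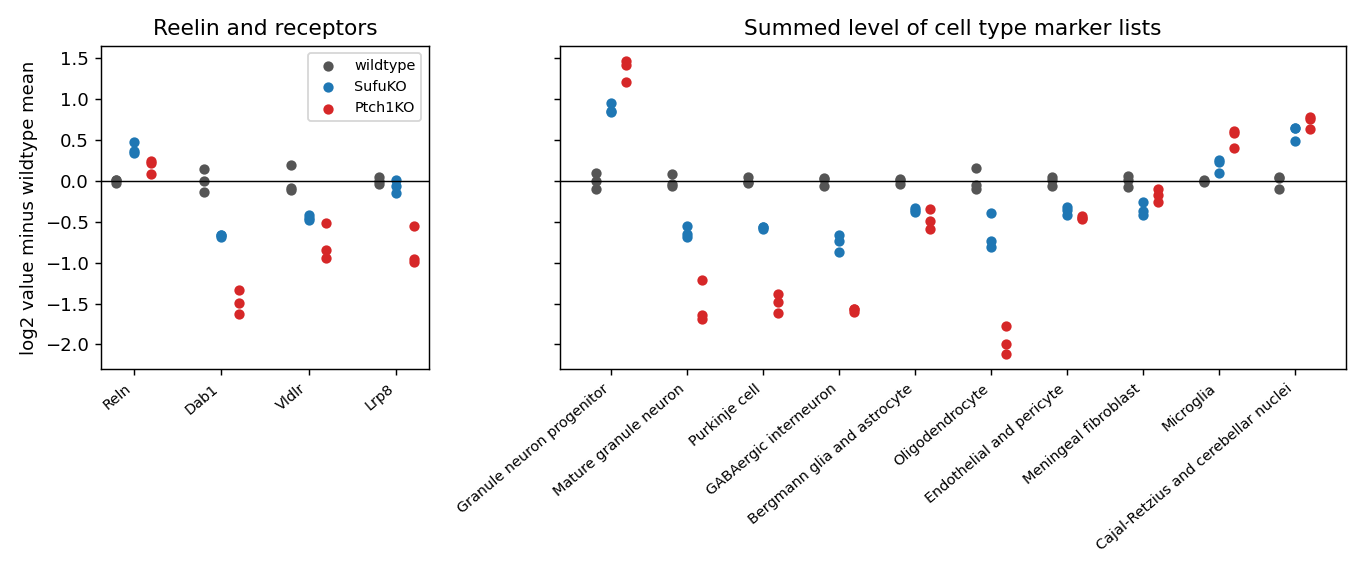
Log2 values of the 4 genes (left) and log2 summed levels of 10 cell type marker lists (right) on each array, minus the wildtype mean of that gene or list. Dab1 and the Purkinje cell list both step down from wildtype to SufuKO to Ptch1KO, as do the mature granule neuron, interneuron and oligodendrocyte lists. The endothelial and pericyte list does so too, narrowly between the mutants (summed levels 11.12 to 11.22 in SufuKO, 11.07 to 11.10 in Ptch1KO). The granule neuron progenitor list steps up while Reln is highest in SufuKO.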

How the data were processed

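The authors deposited log2 expression values of 35556 probe sets on 9 arrays, per the labels from Affymetrix Mouse Gene 1.0 ST arrays run by the maker's procedure. The scale was recognised from the values, which ran from 3.04 to 13.8. How background was corrected, arrays normalised and probes summarised is not given in the sources used here, and there are no detection calls. Precision is limited by having 3 arrays per group. Probe sets were named with the array's annotation table; 21789 had 1 gene, 1621 several and 12146 none listed, and 21698 of the first matched a RefSeq table of GRCm38.p6 by gene identifier. Of several probe sets of a gene, the one with the highest mean was used. A gene was tested if 3 or more arrays had it above the 25th percentile of that array, which kept 16323 of 19938 genes, among them all 4 members.

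The model was fitted in limma 3.58.1 (R 4.3.3), with 1 mean per group over 9 arrays and moderated variances. The 2-sided p-values were adjusted by Benjamini-Hochberg over all tested genes, with a threshold of 0.05. SE is the moderated standard error. The fit was also run on simulated data with independent noise, which the real arrays need not have, and no result here rests on that run. The members and lists were chosen with earlier results of these data known. Up to 4 called genes per pathway list and 3 per marker list are named in a comparison, by smallest p, beside others given where a count or a role calls for them, which were chosen after their values were seen. Promoter sequences are from RefSeq (GRCm38.p6). Alternatives were the filter, quantile normalization, median centring, a trended prior, a fit of 2 groups, a sex covariate, array weights, a replicate block and each array left out.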

Additional observations from a re-analysis of the deposited data

How the results depend on the processing

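Of 216 refits of the 12 differences (4 genes in 3 comparisons, 18 alternatives each), 187 kept their direction and their side of the threshold and 0 reversed. Those of Dab1 and Lrp8, and those of Reln and Vldlr in SufuKO against wildtype and of Vldlr in the tumours against wildtype, all kept both. The other 3 differences passed narrowly and lost their call in some refits, with the cause not tested. For Vldlr in tumours against SufuKO the value was -0.32 with no filter on low values, -0.29 with quantile normalization, -0.32 in a fit of 2 groups and -0.32 with the replicate block (limma adjusted p = 0.0701), and from -0.44 to -0.23 with 1 array left out. For Reln in the tumours against wildtype it was 0.16 with quantile normalization, 0.17 with arrays centred on their median and 0.17 with a sex covariate, and from 0.15 to 0.23 with 1 array left out. For Reln in tumours against SufuKO it was -0.21 in a fit of 2 groups, and from -0.24 to -0.16 with 1 array left out. The labels do not say whether equal replicate numbers mark paired samples. Deviations of same-numbered arrays correlated at 0.08 to 0.35 between SufuKO and wildtype. They correlated at -0.11 to 0.12 between tumours and wildtype and -0.31 to 0.03 between the mutants. No reference value was computed for these correlations, so they do not settle the pairing. The replicate block ended no other call. The sex covariate also ended no other call. The change of Lrp8 minus that of Vldlr moved by less than 1 SD in each refit, and with 1 array left out it ran from 0.31 to 0.42 in SufuKO, -0.14 to -0.02 in the tumours and -0.47 to -0.40 between the mutants. The estimate of array weights stopped before it converged, with a weight of 18.0 on SufuKO replicate 2, so that alternative carries little. None of the 4 genes had a second single-gene probe set, so that alternative was not run. For the list and marker genes the choice of probe set was not varied. With no detection calls, signal over background is unknown. The list counts without Ptch1KO replicate 3 were added after seeing the data.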
